A study of Mus musculus with 48 samples.

Results

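The genes described here encode parts of the axoneme, the microtubule core of motile cilia and sperm tails. They were chosen by symbol, with earlier results of these data known. The rule took every protein-coding gene whose symbol starts with Dnah, Dnaic, Dnali, Dnaaf, Cfap, Rsph, Tekt or Drc followed by a digit. This rule found 62 members among the 48440 genes of the count table, of which 22021 are protein-coding. The members comprise 25 Cfap, 15 Dnah, 8 Rsph, 5 Tekt, 4 Dnaaf, 2 Dnaic and 2 Drc genes and Dnali1. All 62 passed the filter on low counts and were tested together with 31208 genes in all.

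RNA sequencing was performed on the hippocampus, both sides merged, of 48 female mice aged 3 months, labelled C57BL/6 and given as C57BL6/J in the study's methods, with 1 animal per library. The mice carried the genotype label 5-Htt+/+ or 5-Htt+/-, the second with 1 constitutively inactivated allele of the serotonin transporter gene Slc6a4. They were offspring of undisturbed dams (control, C) or of dams restrained 3 times a day from embryonic day 13 to 17 (prenatal stress, PS), and a test of sociability split the PS offspring into SA animals, whose social behaviour was affected, and SU animals, in which it was not. The groups held 8 5-Htt+/+ C, 8 5-Htt+/+ SA, 8 5-Htt+/+ SU, 7 5-Htt+/- C, 8 5-Htt+/- SA and 9 5-Htt+/- SU libraries. The labels do not give the litter, so that p-values may be too small where animals shared one.

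Motile cilia beat because dynein arms, built from heavy, intermediate and light chains, slide neighbouring microtubule doublets past each other. Radial spokes and the central apparatus regulate the arms, the nexin-dynein regulatory complex links the doublets, and tektins together with many CFAP proteins line the inside of the doublet wall. In the brain, multiciliated ependymal cells line the ventricles next to the hippocampus, and the epithelium of the choroid plexus, which makes transthyretin (Ttr) and secretes cerebrospinal fluid, carries tufts of cilia as well. Several of the names, however, belong to genes that cells without motile cilia also use.

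Total counts ran from 16488405 to 38213754 per library. Libraries fell into separate ranges of Ttr, with 28 libraries between 4.93 and 34.8 CPM (read counts scaled to library size) and 20 between 226 and 788 CPM, the latter being over 4 times the median of 23.0 CPM. These 20 libraries, called Ttr-high below, were spread unequally. They made up 3 of 8 5-Htt+/+ C, 5 of 8 5-Htt+/+ SA, 2 of 8 5-Htt+/+ SU, 1 of 7 5-Htt+/- C, 3 of 8 5-Htt+/- SA and 6 of 9 5-Htt+/- SU libraries. Summed over 15 choroid plexus genes, the level was 299 to 1003 CPM in the Ttr-high and 31.6 to 73.3 CPM in the other 28 libraries. Slc6a4 was at 12.8 to 17.0 CPM in the libraries labelled 5-Htt+/- and at 0 to 0.261 CPM in those labelled 5-Htt+/+. The level thus separated the labels without overlap and was higher where 1 allele is inactivated. These reads do not show by themselves whether the labels are right. Every genotype below is that of the label, each direction between genotypes rests on it, and the cause of this order was not tested. In bulk tissue, fewer cells of a type and less RNA per cell cannot be told apart.

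Regulatory factors of the RFX family bind the X-box, and FOXJ1, a forkhead factor, switches on motile cilia genes. The promoters of the members were searched for these motifs. A promoter in RefSeq (build GRCm38.p6) was found for 52 of the 62 members, and the 250 bases before each start were read on both strands. The X-box letters GTTGCCAT stood before the start of 5 of 52 members (9.62%) and of 1.29% of 27025 genes with a promoter. With any base at the fourth position (GTTNCCAT, which contains the first motif) it was 10 of 52 (19.2%) against 4.26%, and with only the letters GTTGCC, which the first motif also contains, 15 of 52 (28.8%) against 11.8%. The forkhead letters TGTTTAC were found in 4 of 52 (7.69%) against 3.54% of genes, and TGTTTGC in 4 of 52 (7.69%) against 4.93%. A match is a description of these letters and not a binding site, and its part in the members' levels was not tested.

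The windows of 30 bases below hold the match closest to the start for some of the members named in the results. They are written 5′ to 3′ on the strand of the gene, with the match in capitals.
Cfap45, chr1:172521100-172521129, plus strand: ctagttcttgggttgctATGGTAACgcgtc
Drc1, chr5:30281363-30281392, plus strand: caggtgactgctttccctTGGCAACggctt
Tekt1, chr11:72361883-72361912, minus strand: cgttgcgtccgtccgGTTGCCATagagacc
Cfap161, chr7:83794862-83794891, minus strand: gcctggtcgtcATGGCAACgaagcacgcta
Cfap44, chr16:44394767-44394796, plus strand: gggacgttgctATGGCAACcgcagtaaacg
Cfap52, chr11:67965643-67965672, minus strand: gcatgcgtgcgccaGTTACCATgacgacca
Dnali1, chr4:125065658-125065687, minus strand: ccatggggcaaggagaggagggGTTTCCAT
Dnaaf2, chr12:69198430-69198459, minus strand: cctcctcccaggcgttactATGGCAACaaa
The matches in Cfap45, Drc1, Cfap161, Cfap44 and Dnaaf2 lie on the opposite strand, and that in Drc1 holds the 6 letters GTTGCC with 1 more letter of the X-box. Starts are those of RefSeq and can differ from the gene starts of the count table. The match nearest to the start, in Dnali1, ended 1 base before it, and the farthest of those shown, in Cfap161, began 41 bases before it. Farther matches in named members are not shown. Matches of the same letters as in Drc1 lay 95 to 89 bases before the start in Cfap20 and 163 to 157 bases before it in Dnah7b.

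The members covered a wide range of levels. Per kilobase of exon, the mean level over 48 libraries was highest for Cfap36, an ARL3-binding protein, at 24.2 CPM per kb, followed by Rsph9 at 18.7 and Rsph14 at 18.1 CPM per kb. In CPM, not scaled for length, Cfap36 lay at 66.5, Rsph14 at 54.6, Rsph3b at 41.0, Cfap20 at 35.5 and the dynein heavy chain gene Dnah9 at 29.0 CPM. At the other end Tekt3 had a mean of 0.265 CPM, Cfap73 of 0.490 CPM and Tekt4 of 0.513 CPM, with a median of 11.5 reads of Tekt4 per library and 1 library at 0. Dnah8, which is known from sperm tails, was lowest in its subfamily at 1.49 CPM, or 0.0556 CPM per kb. Of 14 sperm and spermatid genes, 8, among them Prm2, Tnp1 and Akap4, failed the filter on low counts, and Pgk2 was at 0 in 42 of 48 libraries. The 6 that passed summed to 6.16 to 10.5 CPM per library in these female mice.

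Some levels cannot be assigned to 1 gene with certainty. Exon bases are shared with another annotated gene by 29 members, and by more than 10% of their exon length by 8, among them Dnaaf2 (32.7%), Tekt2 (20.8%) and Dnaaf1 (20.7%, on the opposite strand of Taf1c). Dnah7a, Dnah7b and Dnah7c, and likewise Rsph3a and Rsph3b, are close paralogs between which reads can be split. The 4 genes given as markers of the members were all measured. Cfap45 (chr1:172520801-172545870) stood at 3.51 CPM, Drc1 (chr5:30281388-30366695) at 9.34 CPM, Rsph4a (chr10:33905111-33916021) at 3.10 CPM and Tekt4 (chr17:25471590-25476594) at 0.513 CPM, in GRCm38. Foxj1, the defining regulator of motile cilia, was at 4.40 CPM.

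Whether the members follow the amount of choroid plexus RNA was examined by the slope of each gene on the log2 level of Ttr, with the group means in the fit. The slope was called, at an adjusted p under 0.05 (edgeR quasi-likelihood test, Benjamini-Hochberg over all genes), for 15 of 62 members, all positive. Over all genes 0.936% were called positive and 0.0128% negative. The called members were 7 of 25 Cfap, 2 of 15 Dnah, 2 of 8 Rsph, 1 of 5 Tekt, 1 of 4 Dnaaf and 1 of 2 Drc genes and Dnali1, and neither Dnaic gene was among them. Their mean levels lay between 0.579 and 10.7 CPM, and none of the 16 members above 10.7 CPM was called. By comparison 15 of 15 choroid plexus genes (Ttr itself included), 4 of 8 genes of a multiciliated cell list, 3 of 10 regulators of multiciliated cells and 12 of 70 other axonemal genes were called, all positive. Foxj1, Pifo and Dynlrb2 each count in more than 1 of these lists. These shares stand beside the same background, and no list was tested as such.

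**Figure D1:**
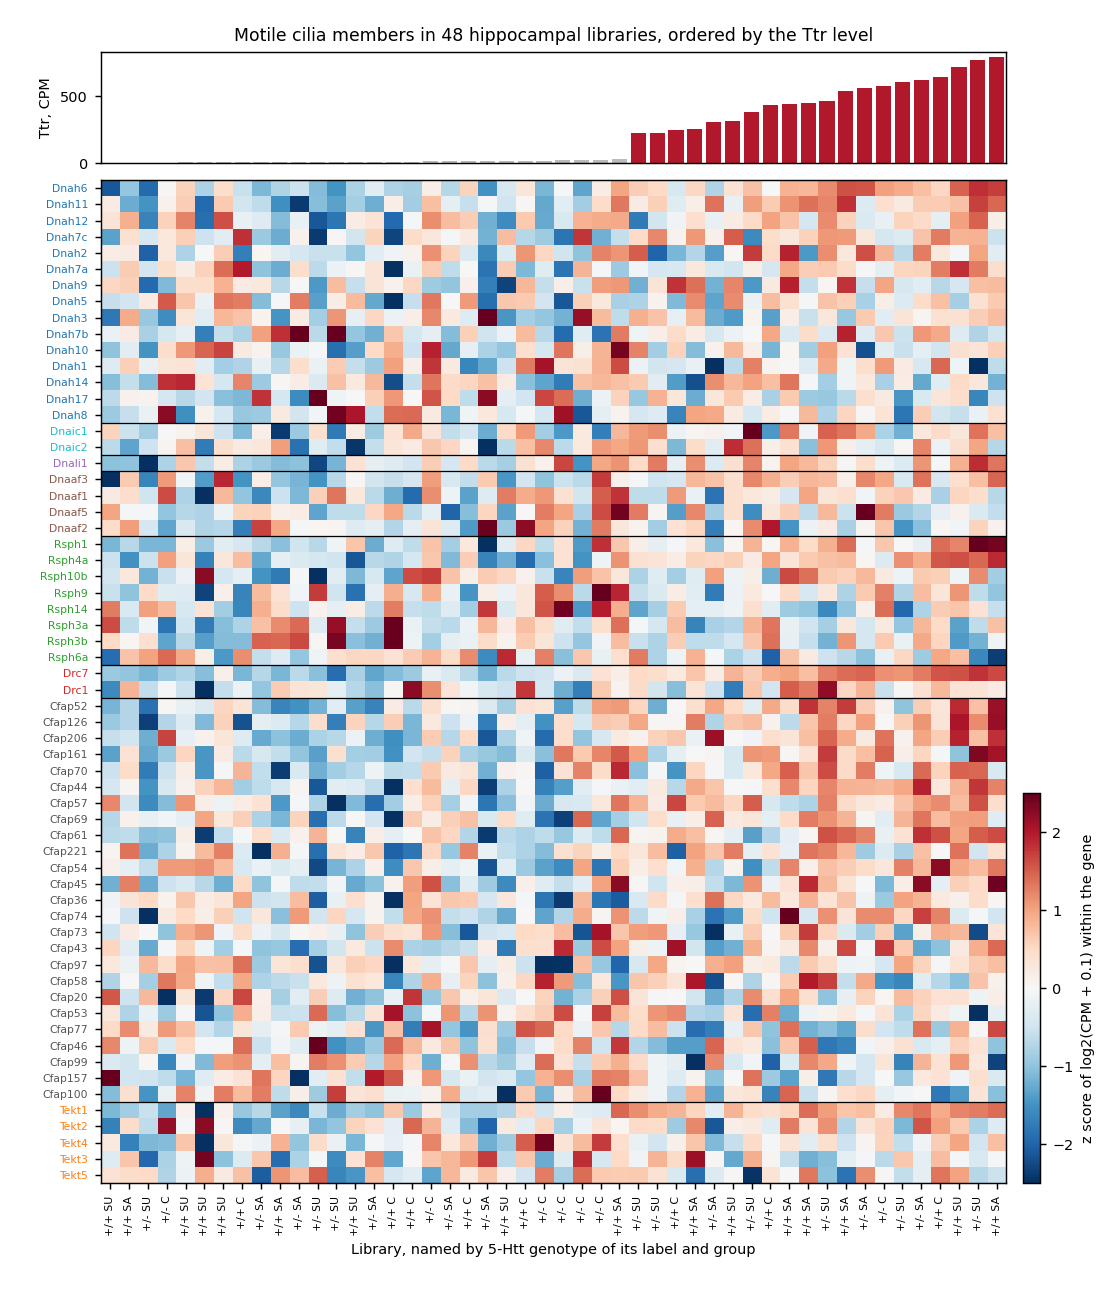
Level of the 62 members (rows, names coloured by subfamily, ordered within it by the Ttr slope) in 48 libraries (columns, ordered by Ttr), as the z score of log2(CPM + 0.1) within each gene, the colours ending at 2.5 SD, below bars of the Ttr level in CPM (Ttr-high libraries in red). Drc7, Tekt1, Dnah6 and Cfap52 turn from blue to red towards the right, where Ttr runs from 226 to 788 CPM, while rows such as Cfap20 or Rsph9 show no such order.

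Drc7 (chr8:95055103-95078141), which encodes a subunit of the nexin-dynein regulatory complex, had the steepest slope. Its level was 3.28 to 9.51 CPM, with a mean of 5.96 ± 1.82 CPM (SD, n = 20), in the Ttr-high libraries. In the other libraries it was 0.793 to 3.69 CPM, with a mean of 1.89 ± 0.674 CPM (SD, n = 28). The ranges overlapped only between 3.28 and 3.69 CPM, and the ratio of the means was 3.15. Each doubling of Ttr went with a rise of 0.34 on the log2 scale (SE 0.0173, adjusted p = 1.93e-21). Within the Ttr-high libraries alone the slope of Drc7 was 0.72 (adjusted p = 2.44e-05), and within the other 28 it was 0.32 (unadjusted p = 0.00457, adjusted p = 0.767). Its partner in the complex, Drc1, had a slope of 0.01 (adjusted p = 0.81) and a ratio of 1.06.

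Other called members moved less. Tekt1, a tektin, averaged 2.22 ± 0.323 CPM (SD, n = 20) in Ttr-high and 1.38 ± 0.413 CPM (SD, n = 28) in the other libraries, with a slope of 0.13 (SE 0.0165, adjusted p = 1.1e-07). Dnah6, an inner arm heavy chain, averaged 4.45 ± 0.962 against 2.85 ± 0.755 CPM, with a slope of 0.13 (SE 0.0171, adjusted p = 1.78e-07). For Cfap52, a protein of the inner doublet wall, the means were 1.60 ± 0.546 and 1.04 ± 0.350 CPM and the slope 0.14 (adjusted p = 0.000123). The ranges of all 3 genes overlapped between the 2 sets of libraries, most visibly in 1 5-Htt+/+ SA library with Ttr at 34.8 CPM, in which Tekt1 reached 2.69 CPM. Slopes of the remaining 11 called members ran from 0.05 (Cfap61) to 0.13 (Cfap126) per doubling of Ttr, among them the outer arm heavy chain gene Dnah11 (0.09), the radial spoke genes Rsph1 (0.07) and Rsph4a (0.07), the tether gene Cfap44 (0.06), the assembly factor gene Dnaaf3 (0.10) and the inner arm light chain gene Dnali1 (0.09). The calls of Cfap61, Dnaaf3, Cfap57 and Cfap161 were lost when 1 of 16, 8, 5 and 4 libraries, respectively, was left out, the highest adjusted p being 0.142 for Cfap61.

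**Figure D2:**
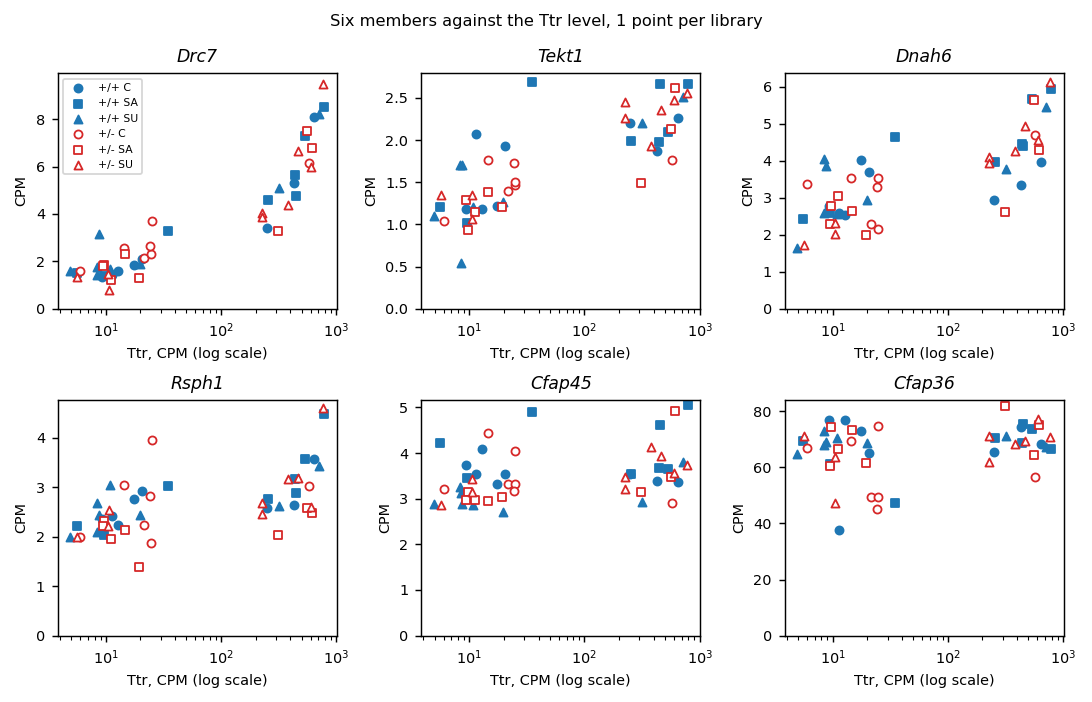
Level in CPM (y axis, linear) of 6 members against Ttr in CPM (x axis, log scale), 1 point per library, filled blue for 5-Htt+/+ and open red for 5-Htt+/-, circles for C, squares for SA and triangles for SU. Drc7 climbs from 1.89 CPM on average to 5.96 CPM, Tekt1, Dnah6 and Rsph1 rise less, and Cfap45 and Cfap36 show slopes of 0.02 that were not called.

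The steepness within the Ttr-high libraries was called for 2 members, Drc7 and Dnah6 (slope 0.38, adjusted p = 0.0303), where 0.230% of 29578 genes were called positive. Among the 28 libraries of low Ttr no member was called, with 0.00661% of 30254 genes called positive, and 5 of 62 members had a positive and none a negative slope at an unadjusted p under 0.05, where 2.98% of genes were positive and 3.27% negative. These few members are not read as a result. In both sets 45 of 62 slopes were positive, where 14915 of 29578 genes in the Ttr-high and 16567 of 30254 in the other libraries were positive. Cfap206, Dnaaf3, Rsph4a and Cfap44 had slopes of -0.12, -0.05, -0.04 and -0.03 in the libraries of low Ttr, none of them called. Ttr ran only from 4.93 to 34.8 CPM there. Whether their positive slope over all 48 libraries rests on the Ttr-high ones was not tested.

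A second gradient was given by a score of multiciliated cells, the mean log2 CPM of Foxj1, Tmem212, Ccdc153, Fam216b, Dynlrb2, Pifo, Mlf1 and Sntn, none of which is a member. With group means and Ttr held in the fit, the slope on this score was called for 3 of 62 members, all positive, where 0.141% of all genes were called positive and 0.00320% negative. These were Dnah12 (slope 0.98, SE 0.140, adjusted p = 2.69e-05), Dnali1 (0.71, SE 0.120, adjusted p = 0.00074) and Dnah6 (0.60, SE 0.0964, adjusted p = 0.000337). All 3 encode chains of inner dynein arms. Dnah10, another inner arm heavy chain gene, had a slope of 0.46 (adjusted p = 0.0502). Other inner arm heavy chain genes did not share this slope. Dnah1 (-0.03), Dnah7a (0.12), Dnah7b (-0.13) and Dnah7c (0.11) were not called, with adjusted p from 0.762 to 0.944. Slopes of a size like that of Dnah6 also occurred in other subfamilies without a call. They were 0.62 for Cfap161 (adjusted p = 0.197), 0.60 for Dnaaf3 (adjusted p = 0.18) and 0.51 for Cfap70 (adjusted p = 0.0948). Dnah12 was not called on Ttr (slope 0.04, adjusted p = 0.757), and its level was 0.754 to 2.45 CPM in the Ttr-high and 0.658 to 2.58 CPM in the other libraries.

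Over all members 22 had a positive slope on the score at an unadjusted p under 0.05 and 1, Rsph3b (-0.19, unadjusted p = 0.00237), a negative slope, where 4.22% of all genes were positive and 3.33% negative. Among the 28 libraries of low Ttr the slope was called for Dnah12 (1.10, adjusted p = 0.00888) and Dnah6 (0.71, adjusted p = 0.0104), where 0.0463% of genes were called positive. The Ttr-high libraries gave no call in either direction, and the 4 of 62 members at an unadjusted p under 0.05, all positive, stood near the share of all genes, of which 3.87% were positive and 3.31% negative. Along with the score, 7 of 7 oligodendrocyte genes had positive slopes, 5 of them at an unadjusted p under 0.05 and none called, with a median of 0.20. Their part in the members' slopes was not tested.

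**Figure D3:**
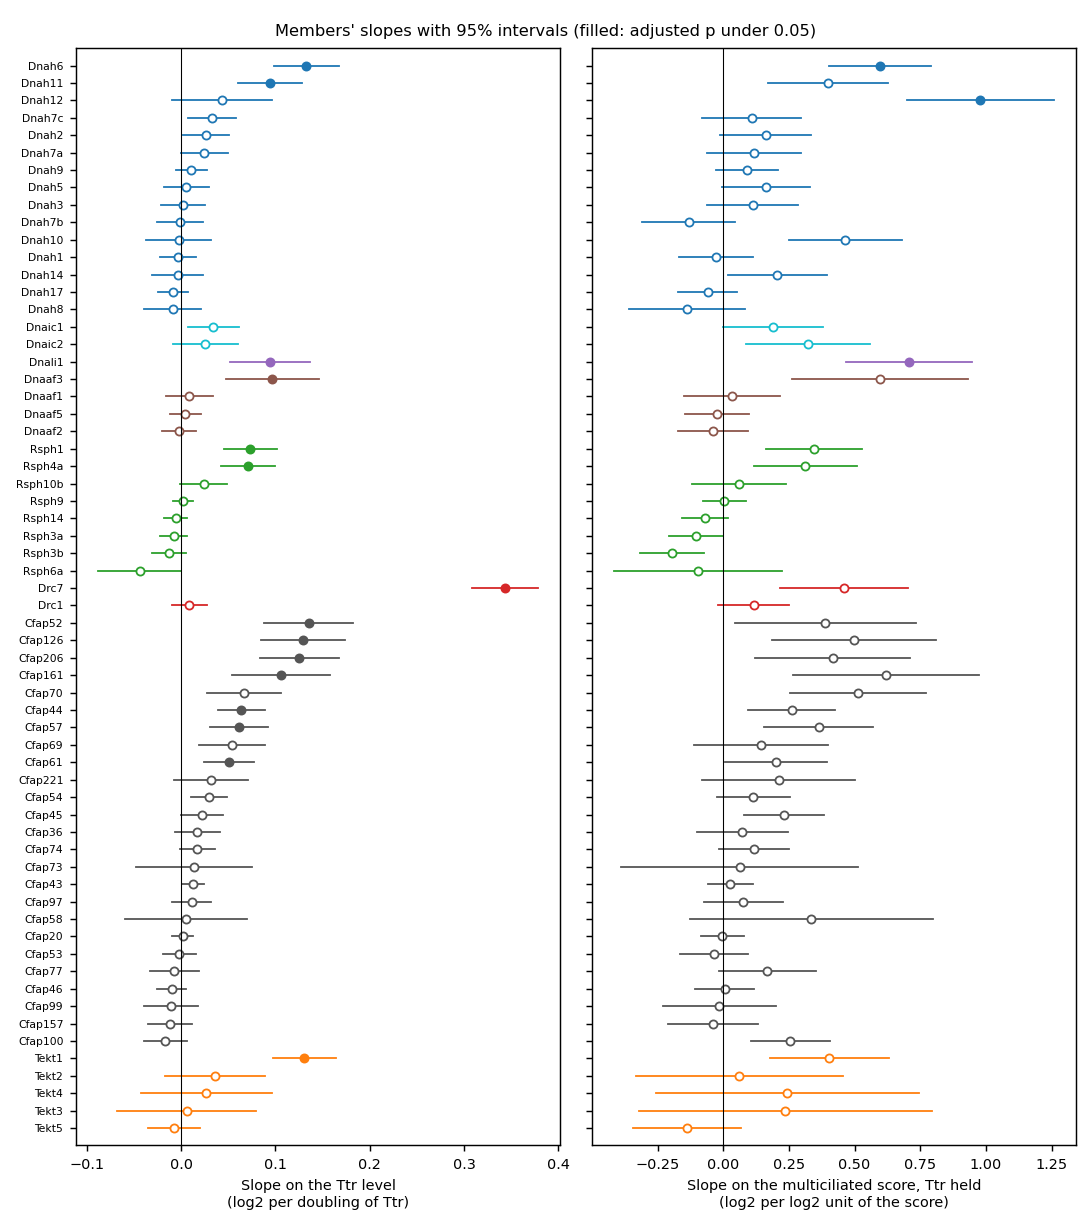
Slope of each member (row, coloured by subfamily) on the Ttr level (left, log2 change per doubling of Ttr) and on the multiciliated score with Ttr held (right, log2 change per log2 unit of the score), with 95% intervals and filled points where the adjusted p was under 0.05. On the left 15 members are filled with Drc7 at 0.34 far from the rest, and on the right Dnah12, Dnali1 and Dnah6 are filled.

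The study asked whether SA and SU offspring differ in a genotype-dependent way, which is the three-way contrast of the SA minus SU difference in 5-Htt+/+ and in 5-Htt+/- animals. In this contrast 46 of 62 members had positive values, that is a larger SA minus SU difference in 5-Htt+/+, and the median was 0.06 on the log2 scale against 0.01 over all genes. No member reached an adjusted p under 0.05, nor did any of the 31208 genes (0%) with or without a Ttr term. The study does report significant genes for this contrast, none of them a member. It adjusted only among the genes nominally significant in it, which is unlike the adjustment over all genes used here. At an unadjusted p under 0.05, 8 members were higher and none lower, while over all genes 2.21% were higher and 1.49% lower. The study's own gene ontology list for this contrast held mostly cilium terms, none passing adjustment. Among their genes were Cfap45 and Drc1, and also Drc7, Tekt1, Dnah6, Dnali1 and Rsph1, which were called on Ttr above. Here Cfap45 had the smallest p (0.51, SE 0.139, unadjusted p = 0.000597), followed by Drc1 (0.38, SE 0.113, unadjusted p = 0.00162) and Rsph1 (0.57, unadjusted p = 0.0104). The others were Cfap161 (0.98), Tekt1 (0.75), Cfap43 (0.17), Rsph4a (0.47) and Dnah11 (0.53), with unadjusted p-values from 0.0109 to 0.0499, and the adjusted p was 1 for each of them.

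The same contrast was then fitted with Ttr held. With the Ttr level as a term, 36 of 62 members were positive, the median was 0.02, and 2 members had an unadjusted p under 0.05, where 2.62% of all genes were higher and 1.88% lower. Those 2 were Cfap45 (0.44, unadjusted p = 0.00289) and Drc1 (0.35, unadjusted p = 0.00486). The value of Drc7 went from 0.91 to -0.19, that of Tekt1 from 0.75 to 0.32, that of Rsph1 from 0.57 to 0.31 and that of Rsph4a from 0.47 to 0.23. These 4 members were called on Ttr in the same libraries, so that the term moves their values by construction. Without the term the 15 choroid plexus genes had a median of 1.39 in this contrast. Without the 20 Ttr-high libraries 1 member was higher and none lower at an unadjusted p under 0.05, where 2.61% of genes were higher and 2.32% lower.

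**Figure D4:**
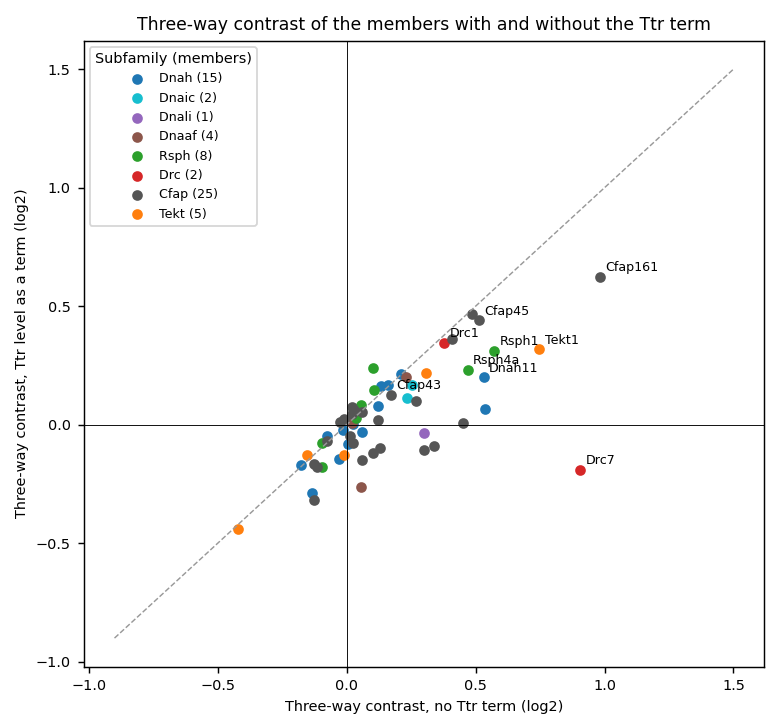
Three-way contrast of each member (1 point, coloured by subfamily) fitted without a Ttr term (x axis, log2) and with it (y axis, log2), the dashed line marking equal values. Named are the members with an unadjusted p under 0.05 without the term or a size over 0.6. Drc7 drops from 0.91 to -0.19, and Cfap45 (0.51 and 0.44) and Drc1 (0.38 and 0.35) stay near the line.

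By subfamily, the median of the three-way contrast without and with the Ttr term was 0.64 and 0.08 for the Drc genes, 0.30 and -0.03 for Dnali1, 0.24 and 0.14 for Dnaic, 0.08 and 0.12 for Rsph, 0.06 and 0.01 for Cfap, 0.04 and 0.02 for Dnaaf, 0.04 and 0.00 for Dnah and -0.01 and -0.13 for Tekt. Medians of the Rsph and Tekt genes hid unlike members, since Rsph1 and Tekt1 were high while Rsph14 (-0.10) and Tekt3 (-0.42, unadjusted p = 0.355) were not. The mean log2 CPM of the Cfap genes was 2.13 ± 0.0905 in C (SD, n = 8), 2.24 ± 0.132 in SA (SD, n = 8) and 2.14 ± 0.122 in SU (SD, n = 8) libraries of 5-Htt+/+ mice. In 5-Htt+/- mice it was 2.15 ± 0.107 (SD, n = 7), 2.10 ± 0.153 (SD, n = 8) and 2.15 ± 0.170 (SD, n = 9) in the same order. For the Dnah genes these means were 2.32, 2.40 and 2.32 in 5-Htt+/+ and 2.35, 2.29 and 2.31 in 5-Htt+/- mice, and for the Rsph genes 3.38, 3.38 and 3.30 against 3.37, 3.28 and 3.35. No test was run on these means.

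Between SA and SU animals of 5-Htt+/+ genotype the smallest p among the members was that of Cfap45, a protein of the inner doublet wall. Cfap45 was at 3.45 to 5.04 CPM in SA (median 3.94, n = 8), at 2.71 to 3.80 CPM in SU (median 2.90, n = 8) and at 3.32 to 4.08 CPM in C (median 3.53, n = 8). SA lay above SU except for 1 SU library, and C lay between them. The SA minus SU difference was 0.44 on the log2 scale (95% interval 0.24 to 0.64, unadjusted p = 5.93e-05, adjusted p = 0.617), and with the Ttr term it was 0.40 (unadjusted p = 0.000256). In 5-Htt+/- mice Cfap45 was at 2.92 to 4.44 CPM in C (median 3.32, n = 7), 2.95 to 4.91 CPM in SA (median 3.09, n = 8) and 2.86 to 4.12 CPM in SU (median 3.49, n = 9). There the groups overlapped throughout, with a difference of -0.07 (unadjusted p = 0.47). The SA library at 4.91 CPM stood apart from the other 7, which ended at 3.48 CPM, and without it the three-way value of Cfap45 was 0.61 (adjusted p = 0.257).

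Drc1, a core subunit of the nexin-dynein regulatory complex, gave a like picture. It ranged from 9.36 to 11.2 CPM in 5-Htt+/+ SA (median 9.97, n = 8), from 6.54 to 9.70 CPM in SU (median 8.52, n = 8) and from 8.10 to 12.3 CPM in C (median 9.25, n = 8). All but 1 SU library lay below every SA library, while C spanned both. The SA minus SU difference was 0.30 (95% interval 0.13 to 0.46, unadjusted p = 0.000688, adjusted p = 0.999), and 0.28 with the Ttr term. In 5-Htt+/- mice the medians were 8.78 CPM in C, 9.23 CPM in SA and 9.63 CPM in SU, with overlapping ranges and a difference of -0.08 (unadjusted p = 0.306).

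Rsph4a, a protein of the radial spoke head, overlapped between all groups. Its medians were 3.32, 3.47 and 2.95 CPM in 5-Htt+/+ C, SA and SU and 2.94, 2.68 and 3.26 CPM in 5-Htt+/- C, SA and SU libraries, within a whole range of 1.84 to 4.64 CPM. Tekt4, a tektin known from sperm tails, had medians of 0.475, 0.563 and 0.432 CPM in the 5-Htt+/+ and 0.696, 0.436 and 0.423 CPM in the 5-Htt+/- groups in the same order. Only the 5-Htt+/- C group reached above 1 CPM, up to 1.53 CPM, and its lowest library was at 0.250 CPM.

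**Figure D5:**
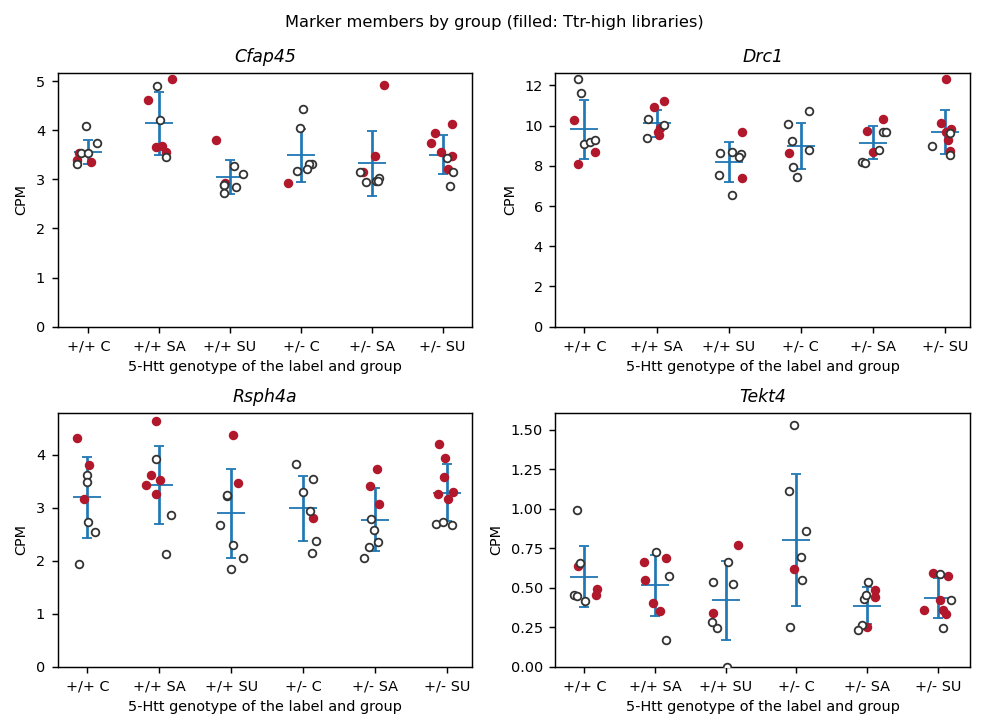
Level in CPM of the 4 marker members in each library, by group (x axis, 5-Htt genotype of the label and C, SA or SU), with the mean and SD of each group as a blue bar, filled red points for Ttr-high and open points for other libraries. Cfap45 and Drc1 lie higher in +/+ SA (medians 3.94 and 9.97 CPM) than in +/+ SU (2.90 and 8.52 CPM), with overlap in 1 SU library each, and Rsph4a and Tekt4 overlap between groups.

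Over all members, the SA minus SU difference in 5-Htt+/+ animals was positive for 43 of 62, with a median of 0.07 against 0.00 over all genes. No member and no gene (0%) was called without or with the Ttr term. At an unadjusted p under 0.05, 5 members were higher and none lower, where 2.28% of genes were higher and 1.62% lower. Beside Cfap45 and Drc1 these were the inner arm heavy chain gene Dnah7b (0.28), Cfap161 (0.66) and Cfap61 (0.30). With the Ttr term the 4 members higher were Cfap45, Drc1, Dnah7b (0.28) and Rsph3b (0.19), none was lower, and 2.28% of genes were higher and 1.85% lower. The values of Cfap161 and Cfap61 then were 0.44 and 0.19. The 15 choroid plexus genes had a median difference of 0.96, and 15 of 15 were positive. Without the 20 Ttr-high libraries 41 of 62 members were positive, where 16330 of 30254 genes were. At an unadjusted p under 0.05, 3 members were higher and none lower, where 2.01% of genes were higher and 1.62% lower.

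In 5-Htt+/- animals 27 of 62 members had a positive SA minus SU difference, the median was -0.02, and again no member or gene (0%) was called in either fit. Rsph1, a radial spoke gene, was lower by an unadjusted p under 0.05, and no member was higher, where 1.63% of genes were higher and 2.16% lower. Its level was 1.40 to 2.58 CPM in SA (median 2.17, n = 8) and reached 4.60 CPM in SU (n = 9), where the next highest library was at 3.19 CPM, with overlap. The difference was -0.36 (unadjusted p = 0.0204) and, with the Ttr term, -0.26 (unadjusted p = 0.0369), where 1.79% of genes were higher and 2.36% lower. Further members of small p were Dnaaf1 (-0.19, unadjusted p = 0.0719), Dnaic1, an outer arm intermediate chain gene (-0.21, unadjusted p = 0.0828), Tekt1 (-0.37, unadjusted p = 0.0854) and Cfap43, a tether gene (-0.09, unadjusted p = 0.0906). All 15 choroid plexus genes were lower in SA here, with a median of -0.41, so Ttr ran in opposite directions in the 2 genotypes. Without the 20 Ttr-high libraries the direction turned, with 35 of 62 members positive and a median of 0.05, where 15633 of 30254 genes were positive. At an unadjusted p under 0.05, 3 members were higher and none lower, where 2.57% of genes were higher and 2.53% lower.

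Compared with controls, which enter the SA and the SU comparison alike, no member was called in either genotype or fit. In 5-Htt+/+ SA animals 44 of 62 members were positive with a median of 0.06, and 4 members were higher and none lower at an unadjusted p under 0.05, where 1.81% of genes were higher and 1.26% lower. These were Cfap221, a gene of the central apparatus (0.47, unadjusted p = 0.00924), Cfap45 (0.23), Cfap161 (0.57) and Dnaaf3 (0.51). Over all genes 0.0128% were called without and 0.0160% with the Ttr term. In 5-Htt+/+ SU animals 26 members were positive, and Drc1 (-0.25, unadjusted p = 0.0031), Rsph3b (-0.23, unadjusted p = 0.00693), Rsph3a (-0.15) and Cfap45 (-0.22) were lower and Cfap221 (0.39) higher at an unadjusted p under 0.05. Of all genes 1.59% were higher and 1.78% lower, and 0.0192% were called without and 0.00961% with the Ttr term. Cfap45 and Drc1 thus had SA values above and SU values below the same controls, with Drc1 at 0.04 in SA.

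In 5-Htt+/- SA animals 23 of 62 members were positive against controls with a median of -0.05. At an unadjusted p under 0.05, 5 were lower and 1, Cfap36 (0.25), was higher, where 6.96% of genes were lower and 5.17% higher. The lower members were Tekt4 (-1.03, unadjusted p = 0.000992, adjusted p = 0.26), Dnaaf1 (-0.35, unadjusted p = 0.00248), the inner arm heavy chain gene Dnah1 (-0.26), Cfap43 (-0.15) and Rsph1 (-0.33). The share of genes called was 0.0288% without and 0.0224% with the Ttr term. In 5-Htt+/- SU animals Tekt4 (-0.92, unadjusted p = 0.00208, adjusted p = 0.144), Rsph14 (-0.15) and Dnah1 (-0.18) were lower and Dnaic1 (0.30) and Cfap97 (0.18) higher, where 8.71% of genes were lower and 6.74% higher, and 0.0160% of genes were called without and 0.00961% with the term. The member counts thus lay close to or below the share of all genes in both comparisons.

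Without the 20 Ttr-high libraries, which leaves 6 C, 5 SA and 3 SU animals of 5-Htt+/- genotype, more members were lower than in controls. In SA 48 of 62 members were then negative, with a median of -0.10, where 16145 of 30254 genes were negative with a median of -0.01. At an unadjusted p under 0.05, 12 members were lower and none higher, where 2.76% of 30254 genes were lower and 1.81% higher. In SU 50 of 62 were negative, with a median of -0.17, where 16114 of 30254 genes were negative with a median of -0.02. At the same limit 12 members were lower and 1 higher, where 4.14% of genes were lower and 2.87% higher. No member was called, the smallest adjusted p being 0.947 in SA and 0.555 in SU. The multiciliated score over all libraries was 0.17 ± 0.337 (SD, n = 7) in 5-Htt+/- C, -0.42 ± 0.318 (SD, n = 8) in SA and -0.16 ± 0.661 (SD, n = 9) in SU libraries. The oligodendrocyte genes summed to 1809 to 3149 CPM in C, 1590 to 2380 CPM in SA and 1616 to 1984 CPM in SU, and 6 and 5 of 7 were lower than in C at an unadjusted p under 0.05. Their part in the members' values was not tested.

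Between genotypes, over C, SA and SU together, 24 of 62 members were higher in 5-Htt+/- with a median of -0.03. No member was called, where 0.0224% of genes were called without and 0.0224% with the Ttr term. Dnah9, an outer arm heavy chain gene (-0.12, unadjusted p = 0.00439), and Cfap52 (-0.32, unadjusted p = 0.0454) were lower and Rsph9, of the radial spoke head (0.05, unadjusted p = 0.0487), higher, where 2.44% of genes were lower and 2.57% higher.

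Among 70 other axonemal genes that passed the filter, such as those of dynein light chains, docking and assembly, 49 were positive in the three-way contrast with a median of 0.09, and 5 were higher and none lower at an unadjusted p under 0.05. With the Ttr term 35 of 70 were positive with a median of 0.00. On Ttr the 12 called included Wdr63, an inner arm intermediate chain gene (0.29, adjusted p = 9.29e-10), Spag16 of the central apparatus (0.09, adjusted p = 9.06e-07) and Lrrc23 of the radial spoke (0.09, adjusted p = 8.77e-05). On the multiciliated score 7 of 70 were called, all positive, among them Ak7 (0.91, adjusted p = 2.69e-05), and 1 of the 7, Dynlrb2, is itself a gene of the score, so that its call was given in advance. Of the regulators, Foxj1 (0.09), Gmnc (0.12) and Cdc20b (0.09) were called on Ttr.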

How the data were processed

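The deposited table holds whole-number read counts per gene, neither normalised nor filtered by the authors. The study's methods give 50-base single-end reads aligned to mm10 with STAR, and Salmon with tximport. The submitters' processing notes list STAR, HTSeq, DESeq2 and GRCm38.p5. No version and no strand setting is stated there, so overlapping genes on opposite strands cannot be told apart. All 48 columns were mapped to libraries.

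From these counts, genes reaching 5 reads in 3 or more libraries entered the analysis, scaled by the upper quartile. The means of all 6 groups were fitted together with edgeR 4.0.16 (R 4.3.3) by the quasi-likelihood test, with Benjamini-Hochberg adjustment over 31208 genes, without and with the log2 CPM (prior count 2) of Ttr as a term. The members, lists and tests were chosen with earlier results of these data known. Levels are CPM on the scaled library sizes. Counts of members with a positive value in a contrast over all 48 libraries stand without the count over all genes. They are not read as a result. Exon lengths and coordinates are from GENCODE M21 and the deposited table. The fit was tested on simulated data with a fixed dispersion. Only genes with more reads than the weak members have were changed there, so the simulation does not cover those members. Alternatives included TMM and RLE scaling, other filters, DESeq2 1.42.0 and leaving out each library. Groups of 7 to 9 limit precision, and weak members rest on few reads.

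Named members were the 4 markers, any called in a contrast, the 5 of smallest p in the three-way contrast and in SA against SU of each genotype, the 2 of smallest p in each other contrast, the highest and lowest level of each subfamily, and the 4 steepest called slopes in each direction. Further members named are those of an unadjusted p under 0.05 or a call, and some chosen after their values were seen.

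Replicate numbers in the labels were not treated as pairs. Of 115 same-numbered pairs, 6 had a correlation of residuals over 0.1, with a highest value of 0.26. Their median was -0.00098, and that of other pairs was -0.00199. Such correlations cannot show whether animals shared a litter or a day of processing.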

Additional observations from a re-analysis of the deposited data

Results flagged for a closer look

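Among 15 quantities tested in each of 6 groups, 7 libraries stood apart from the others of their group, where chance alone puts about 1 in 20 groups past the limit used. The highest Ttr levels did so in 5-Htt+/- C, where replicate 5 was at 575 CPM and the other 6 at 5.99 to 25.0 CPM, and in 5-Htt+/+ SU, where replicate 5 was at 715 CPM and the other 7 at 4.93 to 317 CPM. Cfap45 was at 4.91 CPM in replicate 3 of 5-Htt+/- SA, above the 2.95 to 3.48 CPM of the others. Drc1 was at 12.3 CPM in replicate 1 of 5-Htt+/- SU, above 8.56 to 10.1 CPM, and without it the three-way value of Drc1 was 0.32. Rsph1 was at 4.60 CPM in replicate 9 of 5-Htt+/- SU, where the others ended at 3.19 CPM. In 5-Htt+/+ C, Tekt4 was at 0.991 CPM in replicate 2, above 0.416 to 0.657 CPM, and Cfap161 at 0.810 CPM in replicate 1, above 0.291 to 0.533 CPM.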

How the results depend on the processing

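No member was called in any of the 8 contrasts between groups under any alternative run, leaving out each library included. The median of the members never moved by more than the spread between libraries of a group (0.127). That limit is wide beside these medians, and changes of sign fall within it. For SA against SU in 5-Htt+/- the median ran from -0.0234 to 0.0473 over the alternatives other than leaving out 1 library. For SU against C in 5-Htt+/- it ran from -0.165 to -0.0441, and from -0.0616 to 0.0127 with 1 library left out. The three-way value of Cfap45 stayed between 0.43 and 0.61 and that of Drc1 between 0.31 and 0.42. The number of members called on Ttr was 15, and 11 to 16 when 1 library was left out, 11 without 5-Htt+/- SU replicate 7. It was 9 in the replicate block with the Ttr level as a term, 0 without the Ttr-high libraries and 2 in those libraries only, a setting chosen after seeing the data, and fewer libraries entered the last pair of fits. Slopes that turned negative without the Ttr-high libraries were those of Cfap206 (-0.118), Dnaaf3 (-0.0464), Rsph4a (-0.0427) and Cfap44 (-0.0337). On the multiciliated score 3 members were called, 5 by the likelihood ratio test, 5 with the first principal component as a term and 0 in the Ttr-high libraries only.

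Counts of members at an unadjusted p under 0.05, also chosen after seeing the data, varied more. In the three-way contrast 8 became 2 with the Ttr level, with the choroid plexus score, or with Ttr and the replicate block, and 1 without the Ttr-high libraries. Without these libraries 5 became 3 for SA against SU in 5-Htt+/+, 1 lower member became 3 higher ones in 5-Htt+/-, where the median turned from -0.02 to 0.05, 5 became 2 for SU against C in 5-Htt+/+, 6 became 12 and 5 became 13 for SA and SU against C in 5-Htt+/-, and 3 became 5 between genotypes. For SA against C in 5-Htt+/+ 4 became 2 with Ttr or the choroid plexus score and 7 with the replicate block. For SU against C in 5-Htt+/- 5 became 3 with the replicate block and 3 when the fit held its own groups alone. With the first principal component 5 became 3 for SU against C in 5-Htt+/+, 6 became 11 for SA against C in 5-Htt+/-, and 3 became 1 between genotypes, as with the likelihood ratio test (1) and the Snord116 split (1). Between genotypes the replicate block gave 6, with the Ttr level also 6, and for SA against SU in 5-Htt+/- the block with the Ttr level gave 0. The share of all genes was counted only for the fits with the Ttr level alone and those without the Ttr-high libraries. These shifts are therefore not read as a result about the members, and their cause was not tested. Since the numbers were not treated as pairs, the block is given for completeness, and 8 libraries were closest to their own number.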
